A study of Homo sapiens with 6 samples.

Results

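The analysis concerned 10 genes that set the pace of the first gap phase (G1) of the cell cycle, picked by name out of the 60691 genes in the count table: the D-type cyclins CCND1, CCND2 and CCND3, the E-type cyclins CCNE1 and CCNE2, the kinases CDK2, CDK4 and CDK6, and the CIP/KIP inhibitors CDKN1B and CDKN1C. All 10 were found, each once. RNA came from SW1353, an established human chondrosarcoma line (a malignant tumour that forms cartilage), and all libraries came from cells held in 3% oxygen for 48 h. The tested cells carried a lentiviral hairpin labelled shSIRT1, after the NAD+-dependent deacetylase gene SIRT1, though one label field names another gene, EPAS1 (3 libraries), and the control cells a lentiviral hairpin against firefly luciferase, labelled shfirefly (3 libraries). The replicates were described as biological. How many hairpin sequences, clones or pools of cells stood behind each group is not given in the sources used here, so each group stands for 1 hairpin label in 1 line.

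Cyclins are the regulatory subunits of cyclin-dependent kinases. In G1, D-type cyclins, which growth signals induce, bind CDK4 and CDK6, and these kinases begin to phosphorylate the retinoblastoma protein. E2F transcription factors are then released and induce, among others, the E-type cyclins, which bind CDK2 and drive entry into S phase. CDKN1B (p27Kip1) and CDKN1C (p57Kip2) bind and inhibit cyclin-CDK2 complexes, and CDKN1B also helps cyclin D and CDK4 or CDK6 to assemble. Much of this control acts on protein stability and phosphorylation, which RNA counts do not measure. CCND1 is often raised in tumours and is known as a target of HIF-2α in kidney cancer cells.

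Total counts ran from 24993064 to 29564361 in the shSIRT1 libraries and from 28556696 to 32044191 in the shfirefly libraries. SIRT1 itself averaged 13.6 ± 0.953 CPM (counts divided by library size and set to a common scale, on library sizes scaled by the TMM method) in shSIRT1, against 24.95 ± 0.984 CPM in shfirefly (SD, n = 3 each; adjusted p = 2.3e-09 by edgeR's quasi-likelihood method, with the Benjamini-Hochberg procedure over all genes tested). EPAS1, which encodes HIF-2α and is named as the hairpin's target in one of the label fields, averaged 233 ± 10.5 CPM in shSIRT1, against 456 ± 40.8 CPM in shfirefly (SD, n = 3 each; adjusted p = 5.8e-07 by edgeR), so the data do not tell which gene the hairpin was aimed at. The cartilage regulator SOX9 was present at 53.1 ± 1.17 CPM in shSIRT1, against 43.7 ± 2.54 CPM in shfirefly (SD, n = 3 each), whereas the defining cartilage collagen COL2A1 was at or near 0, with 30 counts over the shSIRT1 libraries and 3 over the shfirefly libraries. Summed levels of epithelial, blood and endothelial markers stayed at or below 1.3 CPM in every library.

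Promoter sequence was at hand for 5 of the 10 genes, and 3 are shown because their genes represent the patterns described below: CCNE1, which was higher in shSIRT1, CDK4, which did not pass the test, and CDKN1B, which was lower. Each line gives the 250 bases before the RefSeq start site (GRCh38.p14), read 5′ to 3′ on the strand of the gene: CCNE1 at chr19:29811741-29811990 (forward strand), CDK4 at chr12:57752311-57752560 (reverse strand) and CDKN1B at chr12:12717118-12717367 (forward strand). Capitals mark the E-box CACGTG, the GC box GGGCGG or its complement CCGCCC, and the CCAAT box CCAAT.
CCNE1: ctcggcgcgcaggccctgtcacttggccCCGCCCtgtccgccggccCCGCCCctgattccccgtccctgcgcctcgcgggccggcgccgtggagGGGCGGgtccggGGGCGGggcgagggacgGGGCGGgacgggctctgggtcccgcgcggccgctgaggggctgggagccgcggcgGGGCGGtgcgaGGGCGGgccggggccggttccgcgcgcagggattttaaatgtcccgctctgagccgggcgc
CDK4: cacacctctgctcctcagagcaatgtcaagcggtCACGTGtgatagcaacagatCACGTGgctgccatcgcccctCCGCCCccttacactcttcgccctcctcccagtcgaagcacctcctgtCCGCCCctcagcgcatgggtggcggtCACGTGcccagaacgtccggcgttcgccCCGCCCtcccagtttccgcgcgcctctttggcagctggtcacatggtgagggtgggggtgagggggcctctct
CDKN1B: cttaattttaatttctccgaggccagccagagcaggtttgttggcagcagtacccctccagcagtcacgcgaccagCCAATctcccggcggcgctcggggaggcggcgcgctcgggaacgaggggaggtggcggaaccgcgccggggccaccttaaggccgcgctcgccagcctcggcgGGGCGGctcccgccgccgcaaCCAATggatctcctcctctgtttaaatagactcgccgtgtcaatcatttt

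The CCNE1 window held 7 GC boxes and none of the other words searched. The CDK4 window held 3 E-boxes, the word that MYC with its partner MAX is known to bind, and 3 GC boxes. CDKN1B had 1 GC box and 2 CCAAT boxes. Over 35116 RefSeq promoters cut to the same 250 bases and searched on both strands, 42.6% held a GC box and 13.9% held 3 or more. An E-box was present in 6.345% and 3 or more in 0.08% (28 promoters), and a CCAAT box was present in 32.0%. Promoters with many bases G and C hold more GC boxes by composition, and the CCNE1 window was 81.2% G and C against a median of 58.0% over all promoters. None of the 8 windows of the 5 genes held an E2F word (TTTCCCGC, TTTCGCGC, TTTGCCGC or TTTGGCGC, present in 2.79% of promoters) or the forkhead word TGTTTAC (2.98%). The core of the hypoxia response element, ACGTG (18.5% of promoters), overlaps the E-box, and its 6 matches in CDK4 lay in the 3 E-boxes, read on both strands. A CDK6 window (chr7:92833960-92834209, not printed) held 2 further matches of this core, at -150 and -72 from the start site, outside any E-box. A match is a description of the letters and says nothing of binding.

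Among the 10 genes, the cyclins and kinases were mostly higher in shSIRT1 than in shfirefly, and the one abundant inhibitor, CDKN1B, was lower. Of the 10 genes 9 had enough counts to be tested, and of these 6 rose (CCND1, CCND3, CCNE1, CCNE2, CDK2 and CDK6), 1 fell (CDKN1B) and 2 did not pass (CCND2 and CDK4). CDKN1C was too low to be tested. Across all 16591 genes tested 26.8% were called higher and 26.0% lower, 52.8% in all, at an adjusted p under 0.05, so a call alone was common in this comparison. For 8 of the 9 tested genes no shSIRT1 library fell inside the CPM range of the shfirefly libraries or the other way round, against 59.7% of all genes tested. The median log2 fold change was 0.35 over the 9 genes and 0.005 over all genes tested. When libraries were scaled by their totals alone, the median of all genes moved to 0.13. The table-wide calls were then 6225 higher and 3021 lower in place of 4449 and 4311. CCND2 and CDK4 were called higher as well, so 8 of the genes rose and 1 fell. Upper-quartile factors moved the median the other way, to -0.04, with 3813 genes called higher and 4984 lower. Of the 10 genes 6 rose and 1 fell with these factors, as with TMM. In bulk RNA, a different share of cells in one phase of the cycle and a different level per cell cannot be told apart.

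**Figure D1:**
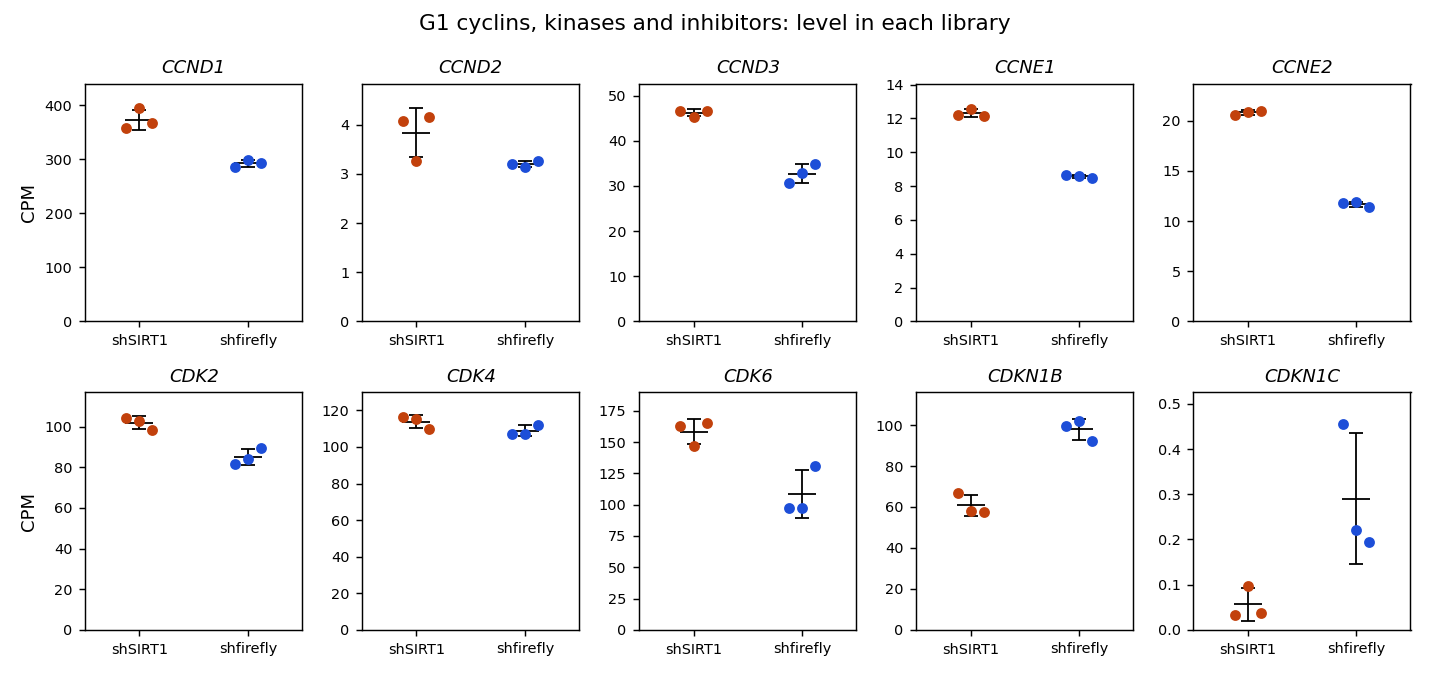
Level of each of the 10 genes in CPM (vertical axes, linear and starting at 0, with a scale of their own per gene), with shSIRT1 libraries on the left and shfirefly libraries on the right. Points are libraries in the order of their replicate numbers, and bars give the mean ± SD (n = 3). The groups stand apart for CCND1, CCND3, CCNE1, CCNE2, CDK2, CDK6 and CDKN1B, meet for CCND2, and overlap for CDK4.

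Among the D-type cyclins, CCND1 was the main transcript and rose. CCND1 (ENSG00000110092.4), on chromosome 11 from 69641087 to 69654474 of GRCh38 (forward strand), stood at 358, 394 and 368 CPM in shSIRT1 and at 286, 298 and 294 CPM in shfirefly. Every shSIRT1 library lay above every shfirefly library, and the means of 373.5 ± 18.8 and 292.6 ± 6.15 CPM (SD, n = 3 each) gave a 1.28-fold higher level (log2 fold change 0.35 ± 0.04 SE, with an adjusted p of 1.5e-07 by edgeR). CCND3 (ENSG00000112576.13), the D-type cyclin best known from blood and muscle cells, had 46.65, 45.3 and 46.7 CPM in shSIRT1 and 30.6, 32.85 and 34.8 CPM in shfirefly. The lowest shSIRT1 library exceeded the highest shfirefly library by more than the whole range within either group. Its rise was 1.41-fold (log2 fold change 0.50 ± 0.06 SE, with an adjusted p of 1.8e-07 by edgeR), and the gene lies on chromosome 6, 41934933 to 42050357, reverse strand. CCND2 (ENSG00000118971.8, chromosome 12, 4273772 to 4305350, forward strand) was scarce, at 4.075, 3.262 and 4.165 CPM in shSIRT1 and 3.192, 3.144 and 3.258 CPM in shfirefly. Its ranges barely parted, since shSIRT1 replicate 2 nearly equalled shfirefly replicate 3, and the log2 fold change of 0.26 ± 0.15 SE did not pass (adjusted p = 0.16).

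Divided by the merged exon length of each gene, the 3 D-type cyclin transcripts summed to 85.8 ± 3.70 CPM per kb in shSIRT1 and 66.7 ± 1.54 CPM per kb in shfirefly (SD, n = 3 each). CCND1 made up 90.1% ± 0.642 of this sum in shSIRT1 and 90.9% ± 0.410 in shfirefly, CCND3 9.30% ± 0.539 and 8.46% ± 0.410, and CCND2 0.627% ± 0.104 and 0.670% ± 0.0204 (SD, n = 3 each). CCND1 was thus the predominant D-type cyclin transcript in all 6 libraries. The ratio of CCND1 to CCND3 within a library, which no scaling between libraries can move, was 9.70 in shSIRT1 and 10.75 in shfirefly (geometric means per kb). The log2 ratios were 3.21, 3.385 and 3.24 in shSIRT1 and 3.49, 3.45 and 3.34 in shfirefly, so the groups overlapped through shSIRT1 replicate 2 and shfirefly replicate 3. The difference of -0.15 had an exact two-sided permutation p of 0.2 (0.2 after Benjamini-Hochberg adjustment over the 4 ratios examined), where 3 libraries against 3 cannot give less than 0.1.

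Both E-type cyclins rose, with CCNE2 showing the largest rise of the 10 genes. CCNE2 (ENSG00000175305.17, chromosome 8, 94879770 to 94896678, reverse strand) had 20.6, 20.9 and 20.98 CPM in shSIRT1 and 11.8, 11.9 and 11.4 CPM in shfirefly. The libraries of a group lay close together and the groups far apart. Its level was 1.78-fold higher (log2 fold change 0.83 ± 0.07 SE, with an adjusted p of 4.9e-09 by edgeR), which lay at the 95.9th percentile of the log2 fold changes of all genes tested. On the other strand its gene overlaps INTS8, at 54.3 CPM in shSIRT1 and 48.5 CPM in shfirefly, and NDUFAF6, at 11.6 CPM in shSIRT1 and 9.5 CPM in shfirefly. Reads of these genes are mixed with those of CCNE2 if counting ignored the strand, and how far they were counted for CCNE2 was not tested. CCNE1 (ENSG00000105173.14, chromosome 19, 29811898 to 29824308, forward strand) had 12.2, 12.6 and 12.1 CPM in shSIRT1 and 8.66, 8.58 and 8.485 CPM in shfirefly, again with no overlap. It rose 1.43-fold (log2 fold change 0.52 ± 0.09 SE, with an adjusted p of 3.7e-05 by edgeR).

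Per length the 2 E-type cyclins were at 4.82 ± 0.0911 (CCNE1) and 4.735 ± 0.0497 CPM per kb (CCNE2) in shSIRT1, and at 3.36 ± 0.0351 and 2.66 ± 0.0591 CPM per kb in shfirefly (SD, n = 3 each). CCNE1 thus exceeded CCNE2 per length beyond the spread in shfirefly, while in shSIRT1 the levels differed by less than the SD of CCNE1. This order depends on the merged exon lengths (2550 bases for CCNE1, 4397 for CCNE2), since in CPM CCNE2 was the higher in every library. The within-library log2 ratio of CCNE1 to CCNE2 was 0.035, 0.051 and -0.006 in shSIRT1 and 0.341, 0.318 and 0.361 in shfirefly, and the groups did not overlap. The difference was -0.31 (exact two-sided permutation p = 0.1, the smallest value possible here; 0.13 after adjustment over the 4 ratios). The longest annotated CCNE2 transcript has 36.9% G and C and that of CCNE1 52.9%. After correction for GC and length of the transcripts the log2 fold changes were 0.62 for CCNE2 and 0.60 for CCNE1. These lay closer together than 0.83 and 0.52 without it. The ratio itself was not examined with that correction.

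The kinase genes parted, with CDK2 and CDK6 higher and CDK4 not passing the test. CDK2 (ENSG00000123374.11, chromosome 12, 55966769 to 55972784, forward strand), the partner of E-type cyclins, had 104, 103 and 98.5 CPM in shSIRT1 and 81.7, 83.8 and 89.5 CPM in shfirefly. The groups did not overlap, and CDK2 was 1.20-fold higher (log2 fold change 0.26 ± 0.04 SE, with an adjusted p of 3.6e-05 by edgeR). CDK4 (ENSG00000135446.17, chromosome 12, 57747727 to 57756013, reverse strand), a partner of D-type cyclins whose promoter with 3 E-boxes is shown above, had 116, 115 and 109.6 CPM in shSIRT1 and 107, 107 and 112 CPM in shfirefly. Here shfirefly replicate 3 lay above shSIRT1 replicate 3, and the log2 fold change was 0.07 ± 0.04 SE (adjusted p = 0.19). CDK4 passed the test, as a rise, with library totals alone (log2 fold change 0.19, adjusted p = 0.00073), after correction for GC and length (0.15, adjusted p = 0.0049) and without both libraries numbered 3 (0.11, adjusted p = 0.037). Its gene overlaps TSPAN31 on the other strand, which averaged 26.4 CPM in shSIRT1 and 36.5 CPM in shfirefly, and reads of such a pair are mixed if counting ignored the strand.

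CDK6 (ENSG00000105810.10, chromosome 7, 92604921 to 92836594, reverse strand), the other partner of D-type cyclins, varied most between replicates among the abundant genes of the set. It stood at 163, 147 and 165 CPM in shSIRT1 and at 97.6, 96.96 and 130.5 CPM in shfirefly. The third shfirefly library lay far above the other two but still below all shSIRT1 libraries. The level was 1.46-fold higher in shSIRT1 (log2 fold change 0.55 ± 0.15 SE, with an adjusted p of 0.036 by edgeR). That call was lost when shSIRT1 replicate 1, 2 or 3 or shfirefly replicate 1 or 2 was left out (adjusted p = 0.11, 0.059, 0.099, 0.084 and 0.097), and with no filter on low counts (0.079). Without shfirefly replicate 3 the log2 fold change was 0.69 (adjusted p = 2.1e-12), and after correction for GC and length it was 0.33 (adjusted p = 0.019), for a longest transcript of 39.5% G and C.

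Per length, CDK4 was the most abundant of the 3 kinase transcripts in every library, at 47.9% ± 0.772 of their sum in shSIRT1 and 52.9% ± 1.38 in shfirefly. CDK2 made up 34.9% ± 0.434 and 33.6% ± 0.417, and CDK6 17.2% ± 1.21 and 13.5% ± 1.63 (SD, n = 3 each). The within-library ratio of CDK4 to CDK6 was 2.785 in shSIRT1 and 3.92 in shfirefly (geometric means per kb). On the log2 scale it was 1.47, 1.61 and 1.36 in shSIRT1 and 2.09, 2.09 and 1.73 in shfirefly, with no overlap and a difference of -0.49 (exact two-sided permutation p = 0.1, the smallest possible; 0.13 after adjustment over the 4 ratios). The ratio was lower in all shSIRT1 libraries than in any shfirefly library. Leaving out single libraries gave differences of -0.61 (without shfirefly replicate 3) to -0.43 (without shfirefly replicate 2). After correction for GC and length the log2 fold changes were 0.15 for CDK4 and 0.33 for CDK6, closer together than 0.07 and 0.55 without it. The ratio itself was not examined with that correction.

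Of the 2 CIP/KIP inhibitor genes, CDKN1B fell and CDKN1C could not be tested. CDKN1B (ENSG00000111276.11, chromosome 12, 12715058 to 12722371, forward strand) had 66.6, 58.0 and 57.5 CPM in shSIRT1 and 99.8, 101.9 and 92.2 CPM in shfirefly. The highest shSIRT1 library lay well below the lowest shfirefly library. The means of 60.7 ± 5.11 CPM in shSIRT1, against 97.95 ± 5.11 CPM in shfirefly (SD, n = 3 each) put CDKN1B 1.61-fold lower (log2 fold change -0.69 ± 0.06 SE, with an adjusted p of 1.3e-08 by edgeR), and CDKN1B stayed lower, and past the test, in all 17 ways of processing, with log2 fold changes of -0.76 to -0.57. CDKN1C (ENSG00000129757.13, chromosome 11, 2883213 to 2885773, reverse strand), an imprinted gene with a role in growth of the embryo, was at the edge of detection, with 1, 3 and 1 counts in shSIRT1 and 14, 6 and 6 counts in shfirefly. All shSIRT1 libraries were at or under the limit of 3 counts that a count of 0 allows (0.0978 to 0.115 CPM). The ratio of its summed counts over scaled library sizes was 0.195 (95% exact interval 0.0585 to 0.516, covering counting error only). In fits that kept such low genes the adjusted p was 0.020 by edgeR without a filter and 0.061 by DESeq2.

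Of the 4 ratios examined, that of CDKN1B to CDK2 differed most, and only it paired a gene that fell with one that rose. The log2 ratio of CDKN1B to CDK2 per kb was -0.178, -0.357 and -0.305 in shSIRT1 libraries and 0.759, 0.752 and 0.513 in shfirefly libraries. CDKN1B transcripts were thus fewer than CDK2 transcripts per length in all shSIRT1 libraries and more numerous in all shfirefly libraries. The difference was -0.95 (exact two-sided permutation p = 0.1, the smallest possible; 0.13 after adjustment over the 4 ratios), and leaving out single libraries gave -1.04 to -0.91.

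**Figure D2:**
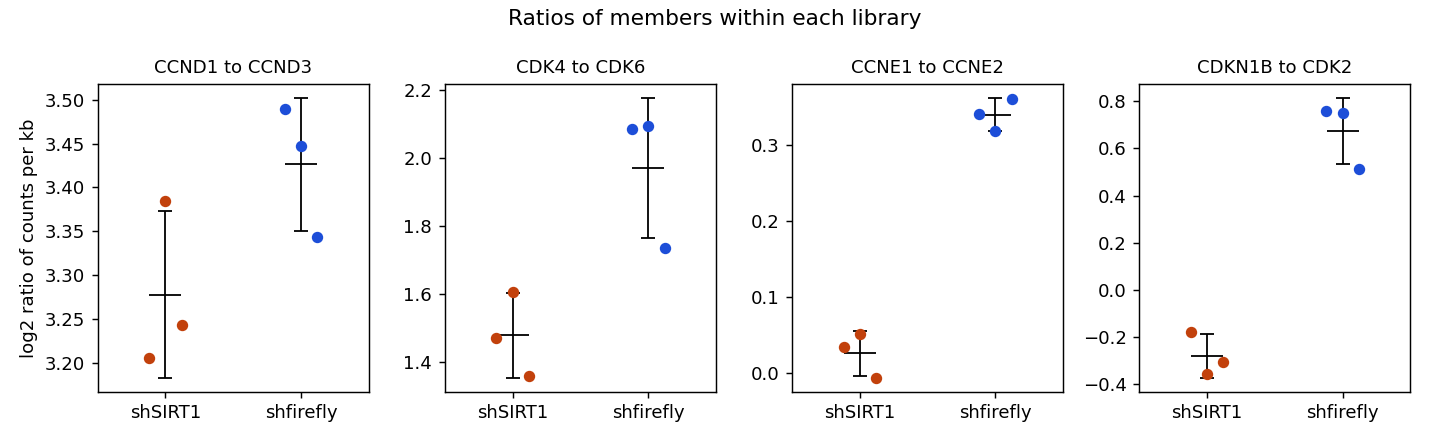
Log2 ratios of counts per kb of merged exons between 2 genes of the same library (vertical axes, on separate scales that do not start at 0), with shSIRT1 on the left and shfirefly on the right. Points are libraries in the order of their replicate numbers and bars are means ± SD (n = 3). The groups overlap for CCND1 to CCND3 and stand apart for the other 3 ratios, most widely for CDKN1B to CDK2.

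Ordered by level per length, the 10 genes kept nearly the same places in both groups. CCND1 came first, at 77.3 ± 3.89 CPM per kb in shSIRT1 and 60.6 ± 1.27 CPM per kb in shfirefly. In shSIRT1 it was followed by CDK4 (35.9 ± 1.17), CDK2 (26.2 ± 0.795) and CDKN1B (21.6 ± 1.82), whereas in shfirefly CDKN1B (34.8 ± 1.82) and CDK4 (34.3 ± 0.940) did not differ beyond their spread and CDK2 (21.8 ± 1.04) came after them. CDK6, CCND3, CCNE1, CCNE2, CCND2 and CDKN1C then followed in this order in both groups. CDK6 stood at 12.9 ± 0.831 CPM per kb in shSIRT1 and 8.84 ± 1.57 CPM per kb in shfirefly, and CCND3 at 7.97 ± 0.132 and 5.64 ± 0.362 CPM per kb (SD, n = 3 each). Merged exon lengths count every annotated exon, so the order assumes that the genes use their exons to a like extent.

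Among the factors that G1 kinases act on, the retinoblastoma proteins and E2F factors, 8 of 13 tested genes rose and 5 did not pass. Their median log2 fold change was 0.27. After correction for GC and length 7 rose and 1 fell. The share called was near the 52.8% called over the whole table, where 26.8% were called higher. Levels in the 2 arms were fully separate for 7 of the 13 genes, against 59.7% of all genes tested, so separation was no more frequent here. The activator E2F2 rose the most (2.48-fold, log2 fold change 1.31 ± 0.11 SE, with an adjusted p of 1.7e-09 by edgeR), followed by RBL1, which encodes p107 (1.655-fold), and the activator E2F1 (1.605-fold). RB1 itself had a log2 fold change of 0.14 ± 0.05 SE (adjusted p = 0.021), with CPM ranges that overlapped. E2F3, a further activator, averaged 36.9 ± 2.61 CPM in shSIRT1, against 36.75 ± 2.18 CPM in shfirefly (SD, n = 3 each) and did not pass (adjusted p = 0.95).

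Genes of S-phase entry, most of them known to be induced by E2F factors, rose in 14 of 15 cases. The median log2 fold change was 0.68. Of all genes tested 26.8% were called higher. TK1 did not pass (log2 fold change 0.09, adjusted p = 0.076 by edgeR), whereas with the replicate number as a block all 15 rose. With upper-quartile factors, without shSIRT1 replicate 2 and without shfirefly replicate 1, 13 rose. The largest rises were those of the replicative helicase subunits MCM6 (1.948-fold), MCM5 (1.945-fold) and MCM4 (1.944-fold). CDC6, which loads that helicase, rose 1.555-fold and the DNA clamp gene PCNA 1.63-fold (adjusted p of 1.1e-09 and 2.3e-10, edgeR quasi-likelihood test). The cyclins of later phases moved less: of 6 tested genes among the S, G2 and M cyclins and CDK1, 5 rose and CCNB3 did not pass, with a median of 0.28. CCNB1, the main mitotic cyclin, rose 1.35-fold, CCNB2 1.235-fold and CDK1, the mitotic kinase, 1.22-fold. CCNA1 was not tested. After correction for GC and length CDK1 no longer passed (log2 fold change 0.09, adjusted p = 0.053).

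**Figure D3:**
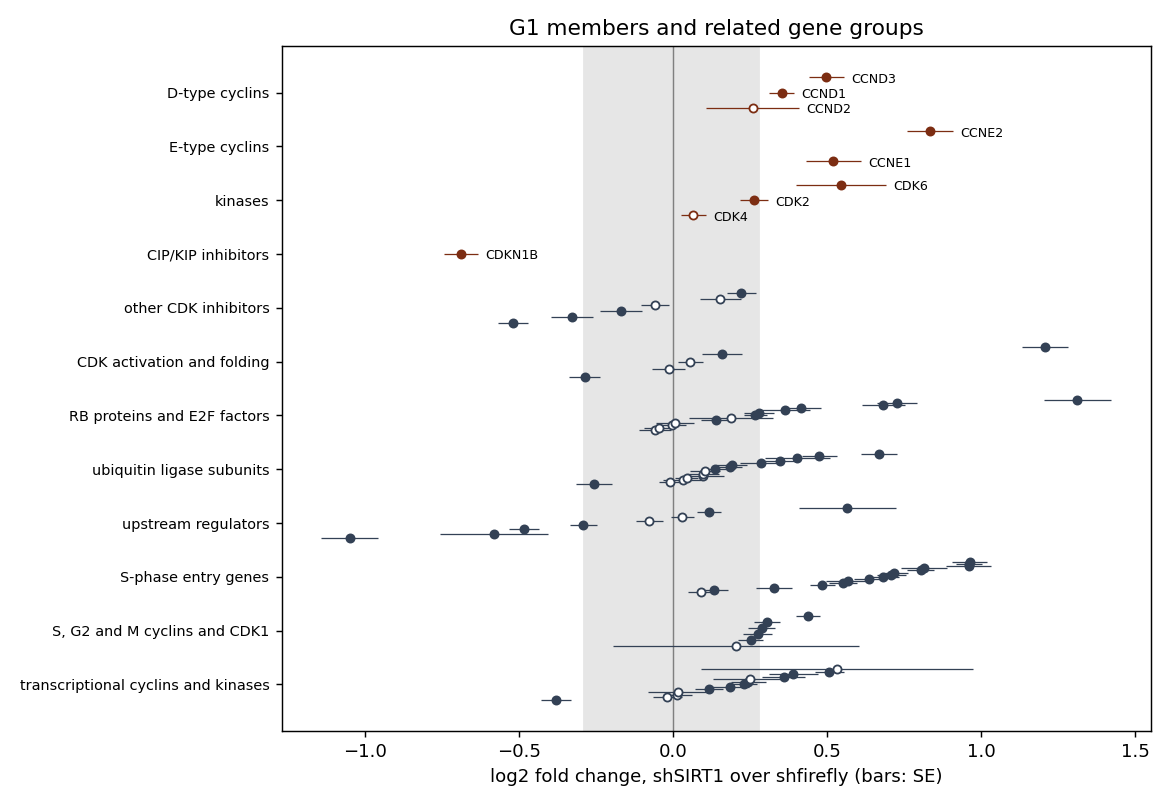
Log2 fold changes of shSIRT1 over shfirefly (horizontal axis, bars ± SE) of the tested G1 genes, in brown with names, and of the related gene groups, in slate. Filled points have an adjusted p under 0.05, open points do not, and the grey band spans the middle of all genes tested, from the 25th percentile (-0.29) to the 75th (0.28). All named G1 genes other than CDKN1B lie to the right of 0, and CCND2, CDK2 and CDK4 lie within the band.

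Inhibitors outside the CIP/KIP pair and regulators of CDK activity did not move as one. Of 6 further CDK inhibitor genes 3 fell and 1 rose, while 2 did not pass. Their median log2 fold change was -0.11. For comparison, 26.8% of all genes tested were called higher and 26.0% lower, 52.8% in all. CDKN1A (p21Cip1), the remaining CIP/KIP gene, averaged 118 ± 5.79 CPM in shSIRT1, against 169 ± 10.9 CPM in shfirefly (SD, n = 3 each; log2 fold change -0.52 ± 0.05 SE, with an adjusted p of 3.4e-08 by edgeR). CDKN2D (p19INK4d), an inhibitor of CDK4 and CDK6, fell 1.26-fold. CDKN2A was 1.125-fold lower at an adjusted p of 0.041, which did not hold in 8 of the 16 alternatives, among them DESeq2 (0.11) and library totals alone (0.58). CDKN3, a phosphatase that acts on CDK2, rose 1.17-fold. CDC25A, the phosphatase that activates cyclin E-CDK2, had the largest change among 5 genes of CDK activation and folding, at 25.97 ± 0.226 CPM in shSIRT1, against 11.3 ± 0.946 CPM in shfirefly (SD, n = 3 each; 2.31-fold higher, adjusted p = 2.3e-11). In the same group CDK7, the kinase of the CDK-activating complex, fell 1.22-fold, and its assembly factor MNAT1 was 1.12-fold higher at an adjusted p of 0.045, a call lost in 11 of the 16 alternatives and turning to a log2 fold change of -0.05 after correction for GC and length.

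Of 15 ubiquitin ligase subunits that act on G1 cyclins and CIP/KIP proteins 8 rose, 1 fell and 6 did not pass, with a median of 0.14, and with library totals alone 13 rose and 1 fell. The 9 called genes are to be read beside the 52.8% called over the whole table, so their share is near that of all genes. By direction, 26.8% of all genes tested were called higher and 26.0% lower. SKP2, the F-box protein that marks phosphorylated CDKN1B for degradation, averaged 51.1 ± 1.54 CPM in shSIRT1, against 32.1 ± 2.57 CPM in shfirefly (SD, n = 3 each; 1.59-fold higher, adjusted p = 4.2e-09 by edgeR). Its cofactor CKS1B had a log2 fold change of 0.10 ± 0.05 SE and did not pass (adjusted p = 0.079). FBXW7, which marks cyclin E, rose 1.22-fold, DTL, which directs CDKN1A to degradation in S phase, 1.39-fold, and FBXO4, described as a ligase for cyclin D1, 1.32-fold. RNF123, which degrades CDKN1B in G1, was the member that fell (1.20-fold lower, adjusted p = 0.00078).

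Among 8 genes known to act on D-type cyclins or CDKN1B from upstream, 2 rose, 4 fell and 2 did not pass. Their median was -0.18. Across all genes tested 26.8% were called higher and 26.0% lower. FOXO4, a forkhead factor that can induce CDKN1B, averaged 8.04 ± 0.318 CPM in shSIRT1, against 16.6 ± 1.62 CPM in shfirefly (SD, n = 3 each; log2 fold change -1.05 ± 0.09 SE, with an adjusted p of 4.3e-09 by edgeR). FOXO3, the more abundant forkhead gene, fell 1.22-fold, whereas FOXO1 rose 1.48-fold at a low level of 3.585 ± 0.254 CPM in shSIRT1, against 2.41 ± 0.201 CPM in shfirefly. MYC, whose product activates CDK4 and CCND2 in many cells, fell 1.40-fold (adjusted p = 3e-08). The kinase gene DYRK1B was 1.496-fold lower (adjusted p = 0.0082), a call lost in 2 of the 16 alternatives, without shfirefly replicate 3 (adjusted p = 0.057) and without both libraries numbered 3 (0.14). GSK3B, whose kinase marks cyclin D1 for export and degradation, was 1.08-fold higher at an adjusted p of 0.014, which did not hold in 5 of the 16 alternatives, among them that after correction for GC and length (log2 fold change -0.003).

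**Figure D4:**
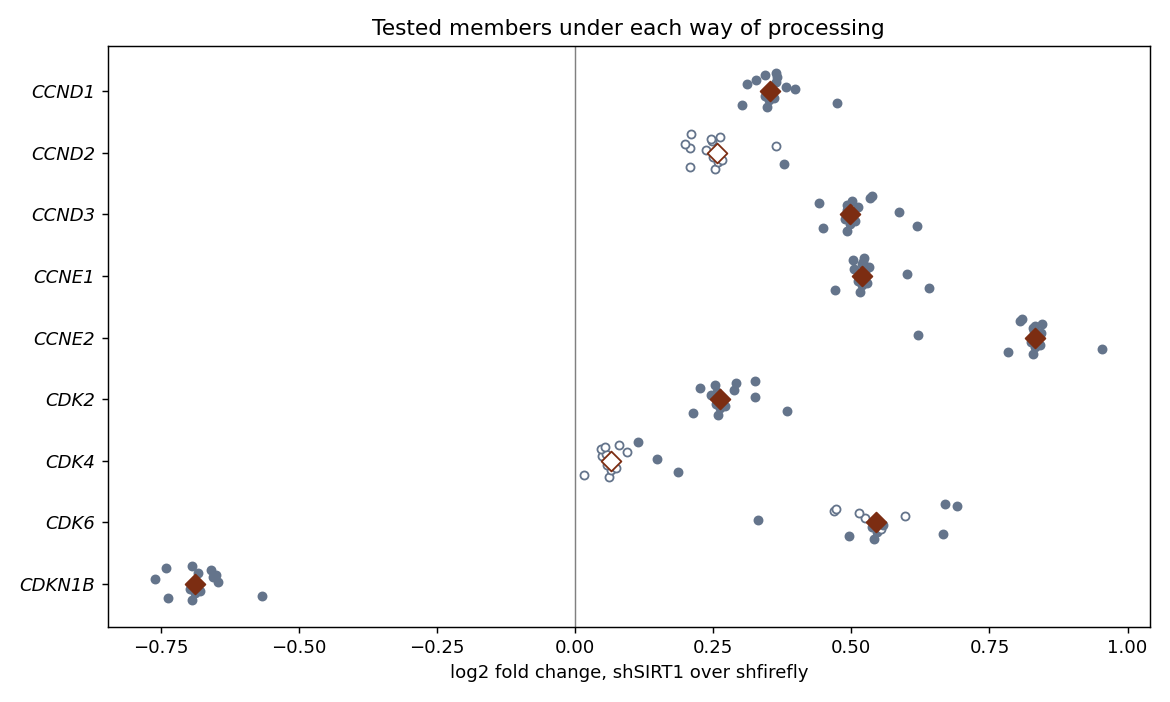
Log2 fold change of shSIRT1 over shfirefly (horizontal axis) for each of the 9 tested genes under the 17 ways of processing. Diamonds give the value reported above and circles the 16 alternatives, filled where the adjusted p was under 0.05. All values of CDKN1B lie between -0.76 and -0.57 and all others lie above 0, while filled and open circles mix for CDK6, CDK4 and CCND2.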

How the data were processed

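RNA of 6 SW1353 libraries (3 shSIRT1, 3 shfirefly) was sequenced from TruSeq Stranded mRNA libraries, per the labels' protocols. The submitters' processing notes name Trimmomatic, STAR, DESeq2 and GRCh38; for versions, counter, annotation and use of strand, nothing is given in the sources used here. The deposited table holds raw counts per gene, per the file headers, and, as whole numbers, normalized counts by the authors, treated as a score and not used. Columns were matched to samples by arm and number in their names.

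Genes were kept by filterByExpr, scaled by TMM (factors 0.948 to 1.048) and tested with edgeR 4.0.16 (R 4.3.3; estimateDisp, robust glmQLFit, glmQLFTest) on group alone, with Benjamini-Hochberg adjustment over all 16591 genes tested. A gene rose or fell at an adjusted p under 0.05. SE was the absolute log2 fold change over the square root of F. The step was tested on simulated counts. Within-library ratios were compared by exact permutation tests (scipy 1.17.1). Coordinates and exon lengths are from GENCODE 29 (GRCh38), matched by identifier without version. The libraries numbered 3 deviated together from their group means (correlation 0.411 over 10810 genes). The correlations were 0.163 for number 1 and 0.113 for number 2, and those of unlike numbers were -0.272 to 0.173. Numbers 1 and 2 thus did not stand out as pairs, and the labels give no reason for a pairing. Between replicates a chi-square per gene was 2.8 to 6.06, so none were duplicates.

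The genes and lists were chosen with earlier results of these data known. Named were all 10 genes, the hairpin targets, and up to 3 rising and 3 falling called genes per list with the largest change. Some others were chosen after their values were seen: RB1, E2F3, TK1, CDC6, PCNA, CCNB3, CKS1B, FBXW7, FOXO3, COL2A1, COL9A1, CCNA1, CDK8, CDK9 and CDK11A. CDKN2B and CDKN2C were likewise added after their values were seen. Alternatives were RLE and upper-quartile factors, library totals, DESeq2 1.42.0, 2 other filters, a replicate block, a fit without robust estimation, an offset for GC content and length of the longest transcript (splines with 5 degrees of freedom; 99.06% of tested genes) and leaving out single libraries; leaving out both libraries numbered 3 was added after seeing the data.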

Additional observations from a re-analysis of the deposited data

How the results depend on the processing

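The 9 tested genes kept the direction of their fold changes in all 16 alternatives. CCND1, CCND3, CCNE1, CCNE2, CDK2 and CDKN1B passed the test in each of them. Between 5 and 8 genes were called higher (5 to 6 when single libraries were left out), with CDK6, CDK4 and CCND2 making the difference, and 1 was called lower, or 2 without a filter on low counts, where CDKN1C was added. With the replicate block 6 genes rose and 1 fell, as without it, and the block changed no call of the 9 genes; CDK6 then had an adjusted p of 0.00033. Among the related groups the block added 1 rising gene each to the S-phase entry genes, the other CDK inhibitors and the transcriptional cyclins and kinases. CCND2 passed with library totals alone (log2 fold change 0.38, adjusted p = 0.039). The 4 within-library ratios kept their sign when single libraries were left out. Their other alternatives, no division by length and the replicate block, leave the difference between groups the same by construction. The correction for GC and length was not applied to these ratios. The CDKN1C ratio ranged from 0.12 to 0.276 when single libraries were left out. The causes of these shifts were not tested. Depth limited CDKN1C, whose 31 counts in all allow no finer statement.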

Other observations

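Among cyclins and kinases that act on transcription, outside the cell cycle, 8 of 13 tested genes were called, a share near the 52.8% called over the whole table. Of these 7 rose and 1 fell, where 26.8% of all genes tested were called higher and 26.0% lower. With upper-quartile factors 5 rose and 1 fell. For the 13 genes the median log2 fold change was 0.23, and after correction for GC and length 4 rose and 2 fell with a median of 0.12. CDK12, which phosphorylates RNA polymerase II during elongation, rose 1.42-fold (84.9 ± 3.00 CPM in shSIRT1, against 59.8 ± 2.63 CPM in shfirefly; SD, n = 3 each; adjusted p = 9.9e-09 by edgeR). CCNT2, a cyclin partner of CDK9, rose 1.31-fold, though not with that correction (adjusted p = 0.054), and CDK9 itself had a log2 fold change of -0.02 (adjusted p = 0.78). CDK11B was 1.28-fold higher, a value that is uncertain because its near-identical copy CDK11A may share its reads. CDK19, a kinase of the Mediator complex, fell 1.30-fold (adjusted p = 9e-07), while its paralogue CDK8 rose 1.14-fold (adjusted p = 0.015).

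Cartilage markers parted. Of 9 genes 5 were tested. SOX9 (1.22-fold) and the matrilin gene MATN3 (1.28-fold) rose, and the matrix genes ACAN (2.24-fold lower) and HAPLN1 (1.88-fold lower) fell. Each of these had an adjusted p of 0.032 or lower by the same test. The MATN3 call was lost in 8 of 16 alternatives, DESeq2 among them (adjusted p = 0.13). ACAN was scarce, at 0.679 ± 0.194 CPM in shSIRT1, against 1.51 ± 0.27 CPM in shfirefly (SD, n = 3 each). COL9A1 had no counts. A call was made for 52.8% of all genes tested.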
